A study of Mus musculus with 6 samples.

Results

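Transcripts of Hif1a and 8 genes of the hypoxia response that do not encode glycolytic enzymes were read from mouse kidney epithelial cells that were attached or held in suspension. The genes were taken by name: Hif1a, Vegfa, Ndrg1, Egln1, Egln3, Bnip3, Adm, Ankrd37 and Ddit4. All 9 were found among the 37757 rows of the authors' deposited table, each in 1 row, and all 9 were among the 14748 rows that the authors tested. The cells came from C57/Bl6J mice aged 8 weeks, and both groups carried the genotype Bim-/- Bmf-/-, so the attached controls were labelled as lacking the same 2 genes, which encode death-promoting BH3-only proteins. One group was grown attached (3 libraries) and the other was kept in suspension for 4 h (3 libraries, titled anoikis, a form of death that follows loss of anchorage). The labels name no oxygen level, hypoxia treatment or inhibitor of the pathway.

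HIF1A is the oxygen-regulated subunit of the transcription factor HIF-1, which binds DNA together with ARNT. When oxygen is present, prolyl hydroxylases of the EGLN (PHD) family modify HIF1A, and the VHL ubiquitin ligase then marks it for destruction. This control acts on the protein, so a transcript level does not give the activity of HIF-1. In kidney tubules the pathway is known for its part in ischaemic injury. Among its targets are secreted peptides (Vegfa, Adm), a feedback arm (Egln1, Egln3) and intracellular proteins of stress and metabolism (Ndrg1, Bnip3, Ddit4, Ankrd37).

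HIF binds a short core, written here as ACGTG or GCGTG on either strand, so the promoters of the called genes are shown to let the letters be set beside the changes. RefSeq's table (GRCm38.p6) gave a promoter for 8 of the 9 genes. Ndrg1, the gene with the largest change of the 9, had none there and is absent from the motif counts. The 5 sequences shown belong to the called genes found there, cover up to 250 bases before the start of transcription, and leave out bases that GENCODE M21 places in exons. Each reads 5′ to 3′ along the gene's own strand, and capitals mark the HIF core, with CACGC and CACGT being the core on the opposite strand. The Hif1a stretch lies within the deposited row of that gene, which starts at position 73901375 (mm10), so bases before that earlier start were not searched. Adm and Bnip3 rose in suspension, while Hif1a, Egln1 and Vegfa fell.
Adm (chr7:110627407-110627656, plus strand): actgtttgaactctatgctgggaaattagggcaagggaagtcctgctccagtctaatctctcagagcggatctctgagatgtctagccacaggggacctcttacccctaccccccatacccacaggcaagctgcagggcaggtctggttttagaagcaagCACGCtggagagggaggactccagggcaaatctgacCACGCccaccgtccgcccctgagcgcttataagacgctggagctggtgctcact
Bnip3 (chr7:138909520-138909756, minus strand): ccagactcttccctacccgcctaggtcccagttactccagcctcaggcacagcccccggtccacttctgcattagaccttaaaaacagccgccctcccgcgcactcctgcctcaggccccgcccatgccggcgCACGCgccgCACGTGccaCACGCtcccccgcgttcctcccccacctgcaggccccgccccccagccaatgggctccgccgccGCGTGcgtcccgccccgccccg
Hif1a (chr12:73907617-73907866, plus strand): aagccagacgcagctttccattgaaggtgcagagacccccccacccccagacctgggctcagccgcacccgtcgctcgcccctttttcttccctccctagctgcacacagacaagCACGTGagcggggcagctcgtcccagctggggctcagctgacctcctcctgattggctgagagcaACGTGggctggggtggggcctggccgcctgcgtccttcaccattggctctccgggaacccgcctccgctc
Egln1 (chr8:124949325-124949504, minus strand): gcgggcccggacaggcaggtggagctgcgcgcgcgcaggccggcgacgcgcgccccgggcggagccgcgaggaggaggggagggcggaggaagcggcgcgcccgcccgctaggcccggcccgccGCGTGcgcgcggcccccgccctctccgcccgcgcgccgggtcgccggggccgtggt
Vegfa (chr17:46032378-46032627, minus strand): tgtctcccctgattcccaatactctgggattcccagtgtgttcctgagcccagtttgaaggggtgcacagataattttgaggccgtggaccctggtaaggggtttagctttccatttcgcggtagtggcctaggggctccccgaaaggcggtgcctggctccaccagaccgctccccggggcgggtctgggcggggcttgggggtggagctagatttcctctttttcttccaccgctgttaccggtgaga

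Within the 250 bases the core stood in 7 of the 8 promoters (Adm, Ankrd37, Bnip3, Ddit4, Egln1, Egln3 and Hif1a). Overlapping matches were merged into 1 site, which gave 4 sites in Bnip3, 3 in Ankrd37, 2 each in Hif1a, Egln1, Adm and Ddit4, and 1 in Egln3. Of the 2 sites in Egln1, 1 lies in the bases left out. No match was found in the Vegfa window, which says only that these letters are absent from that stretch. The core was present in 38.6% of all 27025 promoters in the table. It stood in 57.0% of the promoters of genes called higher in suspension, in 56.3% of those called lower and in 56.9% of those tested and not called. The letters were therefore about as frequent in each class, and promoters that hold them belonged to members that rose, fell or were not called.

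Other motifs had few matches in these 8 windows, near their shares over all promoters. The AP-1 motif TGANTCA, the FOXO motif GTAAACA and the CREB motif TGACGTCA, searched on both strands, matched none of the 8, against 6.87%, 3.09% and 1.62% of all promoters. The NRF2 motif TGACNNNGC matched Adm alone, against 10.1% of all promoters, and there it overlaps a HIF core site.

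The 9 genes did not move as a block. Of them 3 rose (Ndrg1, Adm and Bnip3), 3 fell (Vegfa, Hif1a and Egln1) and 3 were not called (Ddit4, Egln3 and Ankrd37), by the q below 0.05 in the authors' deposited table. Over all tested rows 24.7% were called higher and 26.3% lower, so 3 of 9 in each direction is near the background. With at least a 2-fold change as well, Ndrg1 and Adm remained higher and Vegfa lower, against 12.4% and 7.12% of all tested rows. With q below 0.01 the same 3 rose and the same 3 fell, against 20.3% and 21.0%. The median log2 ratio of the 9 was 0.04, beside -0.04 over the tested rows above 0 in both conditions, and the single values ran from -1.47 to 4.24 in the authors' deposited table.

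**Figure D1:**
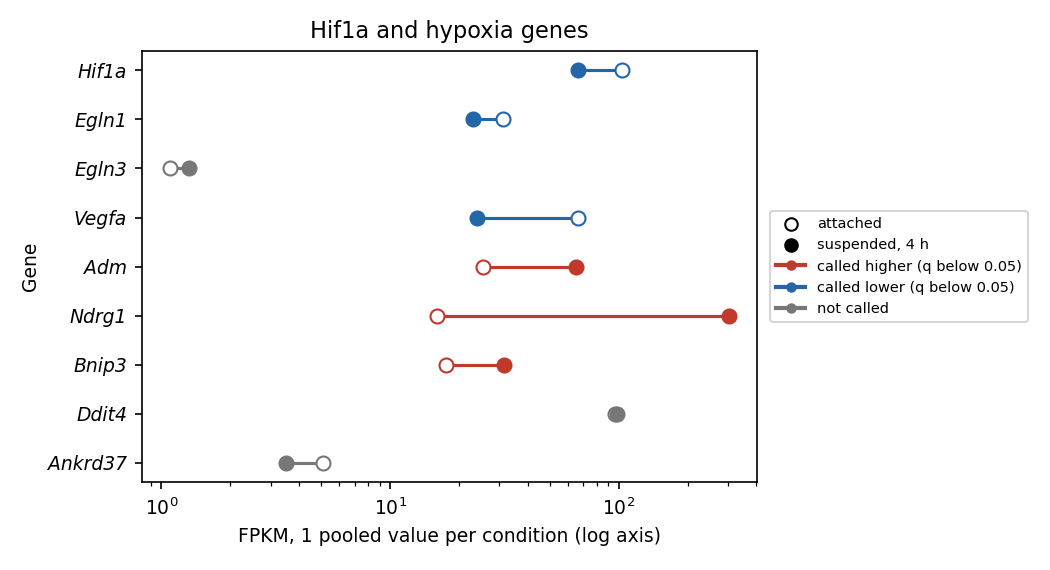
FPKM of the 9 genes on a log axis, with 1 pooled value per condition (open circles attached, filled circles suspended) from the authors' deposited table and lines coloured by call. Ndrg1 moved from 16.1 to 303 FPKM, while the circles of Ddit4 nearly coincide at 96.0 and 98.4 FPKM.

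FPKM are fragments scaled to transcript length and library size, so levels of different genes can be set side by side. The deposited table holds 1 value for each condition, with no value per library, so no spread between replicates can be shown. Its columns are named by letters, with A read as attached and S as suspended. In bulk RNA, fewer cells of a type and less RNA per cell cannot be told apart. An approximate standard error of the log2 ratio was taken from the authors' test statistic instead. The labels do not say whether the 3 libraries of a condition were separate cultures or animals, and the authors' p-values may therefore reflect technical spread alone. Unless another q is given, each called gene has q = 0.000185, the lowest that the authors' deposited table holds.

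In attached cells the order of levels, from the highest, was Hif1a (103 FPKM), Ddit4 (96.0), Vegfa (66.1), Egln1 (31.3), Adm (25.5), Bnip3 (17.6), Ndrg1 (16.1), Ankrd37 (5.10) and Egln3 (1.08 FPKM) in the authors' deposited table. Suspended cells had the order Ndrg1 (303 FPKM), Ddit4 (98.4), Hif1a (66.6), Adm (65.3), Bnip3 (31.6), Vegfa (23.9), Egln1 (23.0), Ankrd37 (3.51) and Egln3 (1.32 FPKM) in the authors' deposited table. Ndrg1 went from the seventh place to the first, and Vegfa from the third to the sixth. No error is given for a single level, so neighbours such as Hif1a and Adm in suspension (66.6 and 65.3 FPKM) were not told apart.

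**Figure D2:**
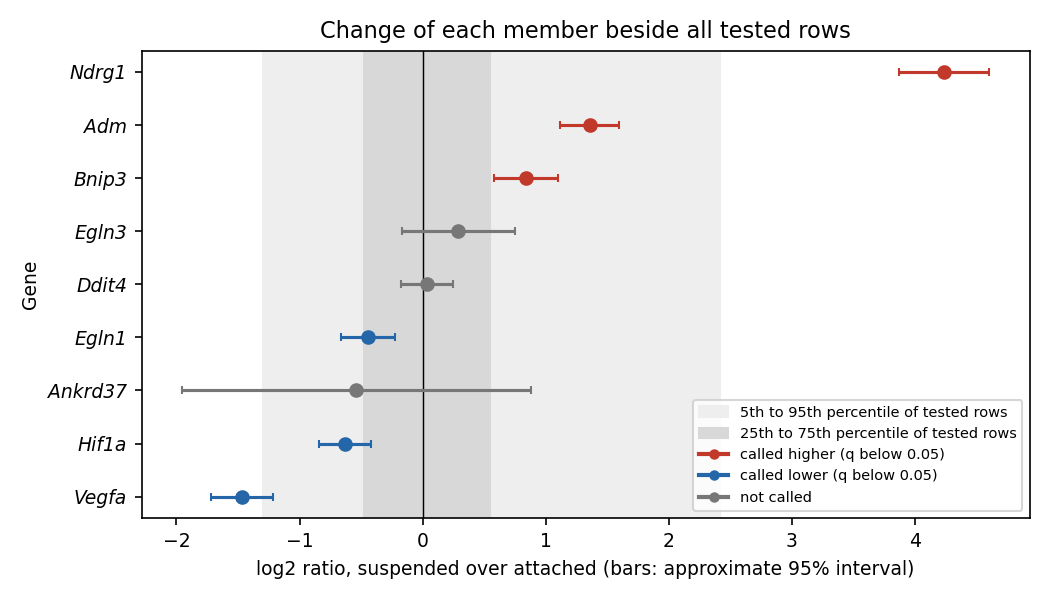
Log2 ratio of each gene, suspended over attached, from the authors' deposited table, with bars for an approximate 95% interval and grey bands for the central 50% and 90% of tested rows. Ndrg1 (4.24) lies above the wider band and Vegfa (-1.47) below it, while the interval of Ankrd37 runs from -1.96 to 0.88.

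Hif1a fell by 0.63 on the log2 scale, with an approximate SE of 0.11. It stood at 103 FPKM attached and 66.6 FPKM suspended (authors' deposited table). Suspended cells thus kept 64.6% of the attached level, and Hif1a still stood above 91.1% of the tested rows there. The row spans chromosome 12, positions 73901375 to 73949785 (mm10). It overlaps Gm49321, annotated as protein-coding on the same strand, so reads of the 2 could be shared. It also overlaps the antisense Gm15283, whose reads cannot be told apart where strand was not counted.

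Partners of HIF1A went the other way. Arnt rose from 10.2 to 16.1 FPKM (q = 0.000355, authors' deposited table). Arnt2, a paralogue that can take its place, rose from 1.69 to 7.80 FPKM (authors' deposited table). The ratio of Hif1a to Arnt, both in FPKM, was 10.1 attached and 4.14 suspended. Epas1, which encodes the related oxygen-regulated subunit HIF-2 alpha, rose from 0.571 to 0.933 FPKM (q = 0.00374) and so stayed low in both conditions in the authors' deposited table. Hif3a was not tested and stood at 0.0997 and 0.201 FPKM (authors' deposited table).

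The oxygen-sensing hydroxylases changed in different directions. Egln1 (PHD2), the main hydroxylase of HIF1A in most cells and a HIF target itself, fell by 0.44 on the log2 scale, with an approximate SE of 0.11. The levels were 31.3 and 23.0 FPKM (authors' deposited table). Its row spans chromosome 8, positions 124908596 to 124949254 (mm10). Egln3 (PHD3), usually the more strongly hypoxia-induced family member, stood at 1.08 FPKM attached and 1.32 FPKM suspended (authors' deposited table). Its log2 ratio was 0.29 with an approximate 95% interval from -0.17 to 0.75 (q = 0.326), so a change of this size was not detectable. The row spans chromosome 12, positions 54178981 to 54203860 (mm10).

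Egln2 (PHD1), the third of these enzymes, rose from 24.7 to 31.3 FPKM (q = 0.00863, authors' deposited table). The ratio of Egln1 to Egln2 was therefore 1.27 attached and 0.734 suspended, while the 3 transcripts summed to 57.0 and 55.6 FPKM. P4htm, a membrane-bound prolyl hydroxylase, rose from 0.266 to 1.29 FPKM (authors' deposited table). Hif1an (FIH), which hydroxylates an asparagine of HIF1A, was at 12.6 and 13.2 FPKM (q = 0.617, authors' deposited table).

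Of VHL and its 4 partners in the ubiquitin ligase, 2 fell and 3 were not called. Vhl, which recognises hydroxylated HIF1A, was listed at 13.3 and 13.1 FPKM (q = 0.906, authors' deposited table). Its ligase partners Tceb2 (210 to 168 FPKM, q = 0.0113) and Cul2 (28.2 to 21.7 FPKM, q = 0.00334) fell in the authors' deposited table. Tceb1 (94.4 and 82.7 FPKM, q = 0.169) and Rbx1 (46.8 and 40.1 FPKM, q = 0.0962) carried no call in the authors' deposited table. The ubiquitin ligases that act on EGLN proteins split: Siah1a rose from 13.6 to 25.5 FPKM and Siah2 fell from 10.2 to 6.24 FPKM (authors' deposited table).

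Coactivator transcripts rose. Crebbp went from 5.19 to 7.80 FPKM and Ep300 from 17.7 to 22.5 FPKM (q = 0.00308, authors' deposited table). Cited2, which competes with HIF1A for these coactivators, rose from 52.2 to 155 FPKM, a 2.97-fold difference, in the authors' deposited table. Of the 17 machinery genes besides Hif1a, Egln1 and Egln3, 16 were tested, and 9 rose, 3 fell and 4 were not called. Their median log2 ratio was 0.34. Among all tested rows 24.7% were called higher and 26.3% lower.

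**Figure D3:**
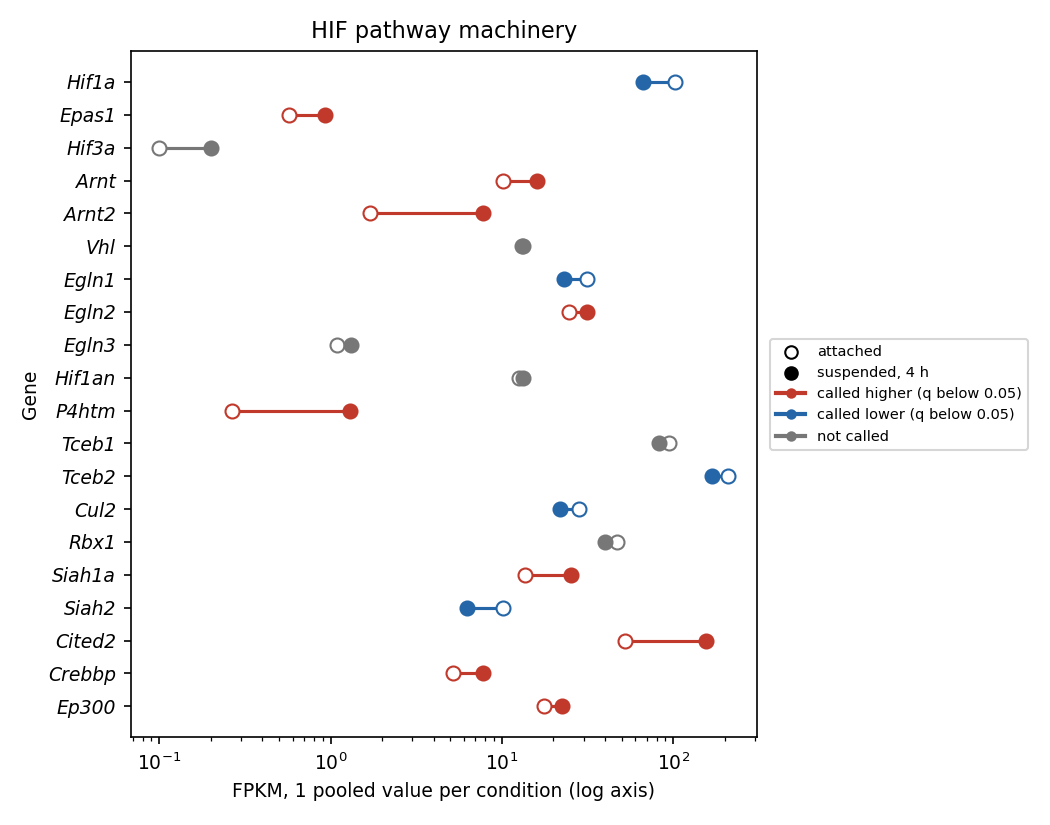
FPKM of the 20 genes of the HIF pathway machinery on a log axis (open circles attached, filled circles suspended, 1 pooled value per condition), coloured by call; Hif3a was not tested and is drawn as not called. Hif1a and Egln1 moved left, while Arnt, Arnt2, Cited2 and Egln2 moved right.

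Of the secreted products, Vegfa fell and Adm rose. Vegfa encodes the growth factor VEGF-A, which acts on endothelial cells and is made by tubule and glomerular epithelium. It went from 66.1 to 23.9 FPKM (authors' deposited table). That is a log2 ratio of -1.47 (approximate SE 0.13), or 36.2% of the attached level, and only 3.87% of tested rows had a lower ratio. The row spans chromosome 17, positions 46016993 to 46032377 (mm10).

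Among the other VEGF ligands and receptors 7 of 9 were tested, and 2 rose, 2 fell and 3 were not called (median log2 ratio -0.18). The shares of all tested rows were 24.7% higher and 26.3% lower. Vegfb fell from 19.9 to 15.2 FPKM (q = 0.0158, authors' deposited table). The coreceptor Nrp2 fell from 22.6 to 16.9 FPKM (authors' deposited table). Figf (VEGF-D) rose from 0.987 to 2.40 FPKM (authors' deposited table). Vegfa was 3.32 times Vegfb in attached and 1.57 times Vegfb in suspended cells, both in FPKM. Nrp1, named after its values were seen, was listed at 105 and 35.8 FPKM without a call (q = 0.586) in the authors' deposited table. Its log2 ratio was -1.56, and without a call its direction was not determined. The authors' p (0.475) and test score (-0.055) for Nrp1 depart from the relation behind the approximate SE, so none is given.

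Flt1, a VEGF receptor that is typical of endothelium, rose from 0.501 to 2.18 FPKM (authors' deposited table). Of the 7 endothelial markers it was the only one tested, the other 6 summed to 0.357 FPKM attached and 0.313 suspended, and Emcn was at 0 in both.

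Adm encodes adrenomedullin, a vasodilator peptide. It rose from 25.5 to 65.3 FPKM (authors' deposited table), a log2 ratio of 1.36 (approximate SE 0.12) or a 2.56-fold difference. The row spans chromosome 7, positions 110627669 to 110629819 (mm10), and the gene overlaps the antisense Gm28863. Adm2, a related peptide, fell from 5.28 to 1.61 FPKM (authors' deposited table). The ratio of Adm to Adm2 was 4.83 attached and 40.5 suspended.

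Other peptides of this family rose: Calcb from 3.65 to 10.5 FPKM and Calca from 0.216 to 1.20 FPKM (q = 0.00308, authors' deposited table). Ramp3, which with Calcrl forms an adrenomedullin receptor, rose from 2.17 to 5.70 FPKM (authors' deposited table). Calcrl itself was not tested and stood at 0.0261 and 0.251 FPKM (authors' deposited table); it is named because the receptor needs it. Of the 8 genes in this list besides Adm, 6 were tested, and 3 rose, 2 fell and 1 was not called (median log2 ratio 0.88). The background over all tested rows was 24.7% higher and 26.3% lower.

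Ndrg1 changed most among the 9 genes. It encodes a cytoplasmic protein that is induced by hypoxia and by other stresses, metals among them, and that is linked to differentiation and lipid handling. Attached cells had 16.1 FPKM and suspended cells 303 FPKM (authors' deposited table). The log2 ratio was 4.24 (approximate SE 0.19), an 18.8-fold difference, and 97.9% of tested rows had a lower ratio. Its level rose from above 61.8% of tested rows to above 98.7% of them. The deposited row spans chromosome 15, positions 66929321 to 67013039 (mm10), which is 83719 bases against 40323 for the gene in GENCODE M21. The antisense Gm17035 has a row of its own there, at 0.127 and 3.25 FPKM (q = 0.226, authors' deposited table). Gm2895, also on the opposite strand, was not tested and stood at 0.0398 and 0.289 FPKM (authors' deposited table). Without strand, reads of these genes and of Ndrg1 cannot be told apart. Genes in the part of the row outside the annotated gene were not looked up.

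The relatives of Ndrg1 had smaller log2 ratios, in both directions. Ndrg4 rose from 18.5 to 40.5 FPKM and Ndrg2 from 1.91 to 4.29 FPKM (authors' deposited table). Ndrg3 fell from 22.0 to 10.3 FPKM (authors' deposited table). Ndrg1 made up 27.5% of the summed FPKM of the 4 NDRG genes in attached cells and 84.6% in suspended cells. The SGK kinases, which phosphorylate NDRG1, also split. Sgk2 rose from 1.82 to 4.00 FPKM (authors' deposited table). Sgk3 and Sgk1 were named after their values were seen. Sgk3 rose from 9.42 to 12.3 FPKM (q = 0.0135), and Sgk1 fell from 25.8 to 15.4 FPKM (authors' deposited table). All 6 genes of this list besides Ndrg1 were called, 4 higher and 2 lower (median log2 ratio 0.75), against 24.7% and 26.3% of all tested rows.

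Bnip3 encodes a mitochondrial outer membrane protein of the BCL2 group that serves as a receptor for mitophagy. It rose from 17.6 to 31.6 FPKM (authors' deposited table), a log2 ratio of 0.84 (approximate SE 0.13) or a 1.79-fold difference. The row spans chromosome 7, positions 138890836 to 138909519 (mm10), and the gene overlaps the antisense Gm45507. Bnip3l (NIX), its paralogue, named after its values were seen, rose from 53.6 to 67.2 FPKM (q = 0.00463, authors' deposited table). Bnip3l thus stood at 3.04 times Bnip3 attached and 2.13 times suspended.

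Of the 12 other mitophagy receptors and ATG8 proteins 11 were tested, and 5 rose, 2 fell and 4 were not called (median log2 ratio 0.02). Of all tested rows 24.7% were called higher and 26.3% lower. Gabarapl1, an ATG8 protein, rose from 115 to 312 FPKM and Pink1, a kinase that marks damaged mitochondria, from 11.4 to 21.8 FPKM (authors' deposited table). Map1lc3a rose from 44.1 to 73.8 FPKM, and Phb2, an inner membrane receptor, fell from 116 to 70.5 FPKM (authors' deposited table).

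Ddit4 (REDD1) encodes an inhibitor of the growth kinase complex mTORC1 that is induced by hypoxia, glucocorticoids and other stresses. It stood at 96.0 FPKM attached and 98.4 FPKM suspended (authors' deposited table). Its log2 ratio was 0.04 with an approximate 95% interval from -0.17 to 0.24 (q = 0.810). The row spans chromosome 10, positions 59949675 to 59951770 (mm10).

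Several other genes that restrain mTORC1 were called, in both directions. Sesn1, a sestrin, rose from 4.59 to 11.9 FPKM and Tsc1 from 5.82 to 14.9 FPKM (authors' deposited table). The sestrins Sesn2 (16.1 to 26.4 FPKM) and Sesn3 (33.7 to 58.0 FPKM), named after their values were seen, also rose (authors' deposited table). The other subunits of the TSC complex, named after their values were seen, fell: Tsc2 from 18.1 to 12.7 FPKM (q = 0.00463) and Tbc1d7 from 14.2 to 9.67 FPKM (q = 0.00143, authors' deposited table). Txnip, which binds DDIT4 and thioredoxin, rose from 99.8 to 200.2 FPKM (authors' deposited table). Deptor, a subunit that inhibits mTOR, fell from 30.6 to 14.2 FPKM (authors' deposited table). All 15 genes of this list besides Ddit4 were tested, and 6 rose, 5 fell and 4 were not called (median log2 ratio 0.26). Calls over all tested rows were 24.7% higher and 26.3% lower.

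Ankrd37 encodes an ankyrin repeat protein known mainly as a HIF-1 target. It was listed at 5.10 FPKM attached and 3.51 FPKM suspended (authors' deposited table). The log2 ratio of -0.54 had the widest approximate 95% interval of the 9, from -1.96 to 0.88 (q = 0.568), so the direction was not determined. The deposited row spans chromosome 8, positions 45975528 to 46029477 (mm10), which is 53950 bases against 8806 for the annotated gene. The annotated gene overlaps Ufsp2 and Lrp2bp on the opposite strand. Ufsp2 was listed at 23.3 and 18.5 FPKM (q = 0.0410) and Lrp2bp at 0.190 and 0.380 FPKM (q = 0.383, authors' deposited table). Without strand, reads of these genes and of Ankrd37 cannot be told apart.

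**Figure D4:**
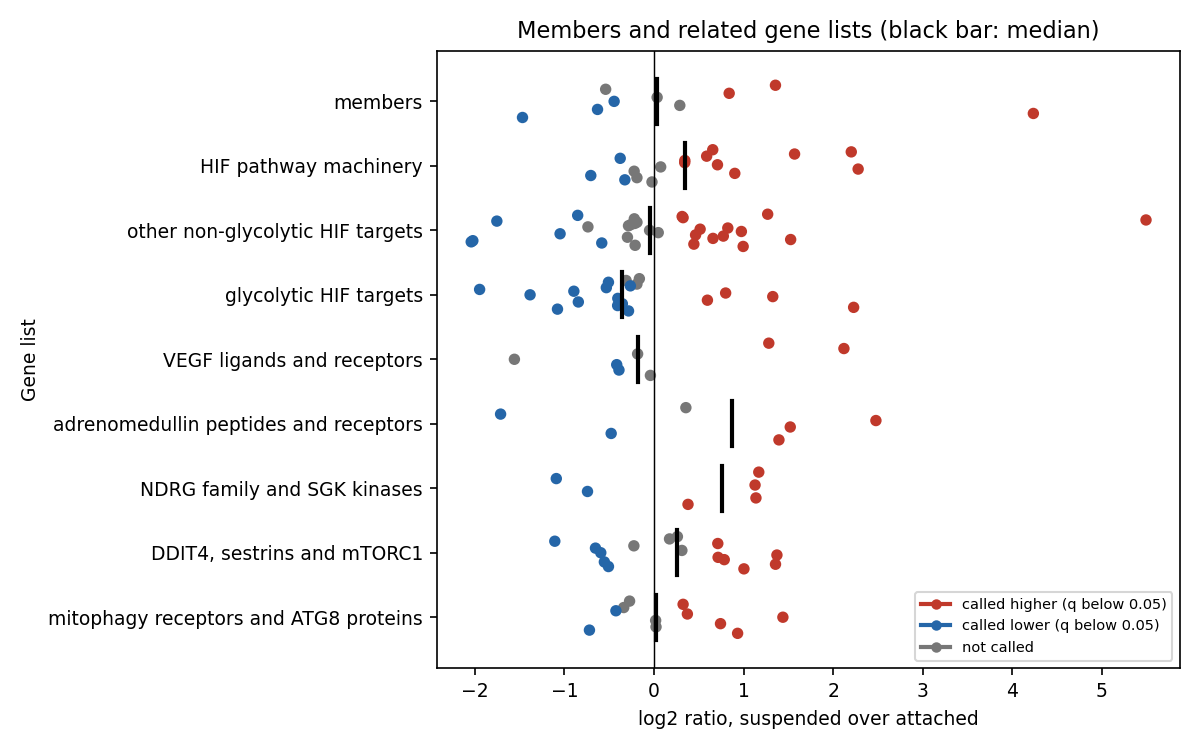
Log2 ratio, suspended over attached, of each tested gene in the authors' deposited table, by list, with colours for the call and a black bar for each median; the 9 members are left out of the lists under them. The glycolytic targets lie mostly left of 0 (12 called lower, 4 higher), and the other non-glycolytic targets lie on both sides (13 higher, 6 lower). Over all tested rows 24.7% were called higher and 26.3% lower.

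A further 34 HIF targets outside glycolysis were also called in both directions. Of these 29 were tested, and 13 rose, 6 fell and 10 were not called, against 24.7% higher and 26.3% lower over all tested rows. Their median log2 ratio was -0.05, with a range from -2.04 to 5.49. At a 2-fold minimum 3 of them were higher and 4 lower, against 12.4% and 7.12% of all tested rows. Cxcr4, a chemokine receptor, rose from 0.0731 to 3.29 FPKM (q = 0.00425, authors' deposited table), and its fold rests on a level near 0. Stc2, a secreted glycoprotein, fell from 5.38 to 1.31 FPKM (authors' deposited table). Edn1, the vasoconstrictor endothelin, fell from 3.48 to 1.03 FPKM (authors' deposited table). Carbonic anhydrase Car9, often used as a marker of hypoxia and named for that reason, was not tested and stood at 0.0644 and 0.0946 FPKM (authors' deposited table).

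Collagen-modifying enzymes, named after their values were seen, also diverged. P4ha1, a collagen prolyl hydroxylase, fell from 30.3 to 14.6 FPKM (authors' deposited table). Its relative P4ha2 rose from 5.998 to 8.28 FPKM (q = 0.0133), and the lysyl hydroxylase Plod2 rose from 45.3 to 71.6 FPKM (authors' deposited table). Of the histone demethylases, Kdm3a rose from 13.8 to 24.4 FPKM and Kdm4b from 6.88 to 9.83 FPKM (q = 0.000676, authors' deposited table). Kdm4c was not called, at 5.65 and 5.46 FPKM (q = 0.794, authors' deposited table).

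The glycolytic HIF targets, for comparison, had 12 of 19 lower, 4 higher and 3 not called, with a median log2 ratio of -0.35. Over all tested rows 26.3% were called lower and 24.7% higher. With a 2-fold change required, 3 glycolytic targets were lower and 2 higher, against 7.12% and 12.4% of all tested rows. Hk2 went from 36.6 to 9.49 FPKM and Pfkfb3, which makes an activator of glycolysis, from 24.4 to 9.36 FPKM (authors' deposited table). Pfkfb4 (2.81 to 7.04 FPKM) and the lactate exporter Slc16a3 (0.412 to 1.93 FPKM) rose in the authors' deposited table. Vegfa, Hif1a and Egln1 thus shared the direction of most glycolytic targets, and Ndrg1, Adm and Bnip3 did not. Whether the lists differ was not tested.

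Signs of cell identity and RNA content moved with the comparison as follows. All 8 epithelial markers were tested and summed to 3524 FPKM attached and 3509 suspended, and 2 rose, 3 fell and 3 were not called. Cdh1 (95.4 to 201 FPKM) and Krt8 (606 to 752 FPKM, q = 0.0115) rose in the authors' deposited table. Pax8 (104 to 37.1 FPKM), Krt18 (773 to 640 FPKM, q = 0.0242) and Cdh16 (441 to 346 FPKM, q = 0.00268) fell in the authors' deposited table. The 6 leukocyte markers summed to 25.7 and 50.7 FPKM, and all 3 that were tested rose. These were Cd68 (23.4 to 34.9 FPKM), Ptprc (1.42 to 12.4 FPKM) and Csf1r (0.729 to 3.25 FPKM, q = 0.0271), as listed in the authors' deposited table. Lyz2 and Cd3e were not tested and were under 1 FPKM in both conditions. The 7 fibroblast markers summed to 0.225 and 1.97 FPKM, most of it from Pdgfra, the only one tested, which rose from 0.155 to 1.81 FPKM (authors' deposited table). Pdgfra had a test score of 0.891 at the lowest q, where Cd68 had 2.26, so its rise is uncertain. Col3a1 and Lum were at 0 in both. Rows of mitochondrial genes summed to 31198 FPKM attached and 68368 suspended, with 3 of 10 tested called, all higher, in the authors' deposited table. The part of these differences in the results above was not tested. For the marker counts, the shares over all tested rows were 24.7% higher and 26.3% lower.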

How the data were processed

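The data are 6 mRNA sequencing libraries, 3 per condition. TopHat, Bowtie, Cufflinks 1.0.3, Cuffdiff and mm10 are named, per the submitters' processing notes; of settings, annotation and strand nothing is given in the sources used here. The authors deposited FPKM, 1 value per condition over its libraries, with a log2 fold change, a test score, a p-value and a q-value of their own comparison, per the file headers. The column letter A was read as attached and S as suspension. Depth is unknown, since values per library were not analysed here. No test was refitted, and calls are the authors' q below 0.05 over 14748 tested rows. Deposited starts count from 0 and were raised by 1.

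The normal quantile of the deposited p divided by the test score had a median of 1.75 (quartiles 1.72 and 1.81 over 10391 rows above the smallest p, 5e-05). The approximate standard error is the log2 ratio divided by the score times this median, and the 95% interval is 1.96 of it on either side. It assumes a normal test, and the spread between libraries cannot be checked from it. For Nrp1 the p and the score do not follow this median, so no error is given. Every called member has the smallest p, so its error extends the median beyond the rows it was taken from.

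The members and all lists were chosen with earlier results of these data known. Lists held 154 genes, of which 151 had a row of their own; Epo, Ramp2 and Map1lc3b did not. Genes named are the members, every machinery gene, and up to 4 called genes with the largest change per list and at least 1 FPKM; exceptions are stated, and 1 gene that the rule names is not reported here. With 1 pooled value in each of 2 conditions, no likeness between gene patterns was computed. Motifs were searched in RefSeq promoters (GRCm38.p6), the first entry per gene, in 250 bases before the start. Calculations were tested on simulated data. Python 3.11.15 was used with NumPy 2.4.6, pandas 2.3.3, SciPy 1.17.1 and matplotlib 3.10.9.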

Additional observations from a re-analysis of the deposited data

How the results depend on the processing

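A pseudocount cannot turn a direction; with 1 FPKM added the log2 ratio of Egln3 went from 0.29 to 0.16 and that of Ndrg1 from 4.24 to 4.15. Rescaling moves every log2 ratio alike, by a median of -0.11 (where both conditions reached 1 FPKM) or an upper quartile shift of -0.10, which is less than the log2 ratio of each called member. Counts of members and of the 8 related lists stayed within 1.5 times with a minimum of 1 FPKM. They were the same with the adjustment recomputed and with rescaling. Rescaling kept the deposited q-values, and the adjustment reused the authors' p-values, so neither is an independent check. With q below 0.01, 1 VEGF gene in place of 2 was called lower, against 21.0% of all tested rows. Likewise 2 machinery genes in place of 3, 10 glycolytic targets in place of 12 and 4 mTORC1 genes in place of 5 were lower. Called higher were 11 other non-glycolytic targets in place of 13 and 3 NDRG or SGK genes in place of 4, against 20.3%. The other counts at this q were unchanged. Requiring a 2-fold change left 2 members higher and 1 lower (Vegfa), while 12.4% of all tested rows were then called higher and 7.12% lower. It left 3 machinery genes higher and 0 lower, 3 other non-glycolytic targets higher and 4 lower, and 2 glycolytic targets higher and 3 lower. Of the VEGF genes it left 2 higher and 0 lower, and of the adrenomedullin genes 3 higher and 1 lower. Among NDRG and SGK genes it left 3 higher and 1 lower. The mTORC1 genes then had 3 higher and 1 lower, and the mitophagy genes 1 higher and 0 lower. The HIF core stood in 7 of 8 member promoters also when 50 bases after the start were added, against 43.8% of all promoters and 62.3%, 64.2% and 62.7% of those of tested genes called higher, lower and not called. Leaving out each replicate was not run, because it needs values per library. No paired analysis was possible because the deposited columns carry 1 value per condition and no replicate.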

Other observations

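Ndrg1 combined a large rise with a high final level, which few genes did. Of 3580 rows called higher and above 0 in both conditions, 106 rose at least as much as Ndrg1, itself included, and 6 of those also reached at least its suspended level. Besides Ndrg1 (16.1 to 303 FPKM) these were Mt2 (1.66 to 1243 FPKM), Mt1 (6.15 to 2143), Srxn1 (14.8 to 457), Hmox1 (98.3 to 2191) and Gclc (54.0 to 1046 FPKM), as the authors' deposited table gives them. Mt1 and Mt2 encode metal-binding proteins, and Srxn1, Hmox1 and Gclc belong to the antioxidant response. The selection was made after the values were seen and uses the values it describes, so it carries no test.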
